A study of Mus musculus with 8 samples.

Results

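Chemokine receptors are G protein-coupled receptors that sense gradients of small secreted proteins, the chemokines, and steer white blood cells. This set holds 9 receptor genes, Ccr1, Ccr2, Ccr7, Ccr9, Cxcr2, Cxcr3, Cxcr4, Cxcr5 and Cx3cr1, of 18193 genes with a probe set assigned to them alone. Members were chosen by name, and every probe set that the array annotation gives to exactly 1 of them was taken, 18 in all. In bone marrow, Cxcr4 binds Cxcl12 and holds stem and progenitor cells in their niche. Ccr2 binds Ccl2 and Ccl7 and lets monocytes leave the marrow, Cxcr2 does so for neutrophils, and Cxcr3, the receptor for Cxcl9, Cxcl10 and Cxcl11, guides activated T cells, NK cells and plasmacytoid dendritic cells.

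The arrays measured multipotent progenitors from bone marrow of female C57BL6 mice aged 8 to 10 weeks. One group was wild type and the other carried FLT3-ITD, an internal tandem duplication that leaves the receptor tyrosine kinase FLT3 active without its ligand. Cells of both groups were sorted as lineage negative, with Sca-1, cKit and CD48 present and CD150 absent. The sources used here do not say how the FLT3-ITD allele was introduced, whether mice had 1 or both copies, or whether cells of several mice were pooled. Each genotype had 4 arrays, labelled 1, 2, 3 and 1 with the tag 037 (replicate 037 here); the meaning of the tag is not given, and since no label says that the arrays come from separate mice, a p-value reflects the variation among these arrays only, part or all of which may be technical.

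Expression is given as the deposited log2 value of a probe set, where a difference of 1 is a doubling. The array medians lay between 5.98 and 6.05 and serve as a mark of dim signal. Of the genes of the sort, Kit and Cd48 lay above the median on 8 of 8 arrays and Slamf1, which encodes CD150, on 0. The gene of Sca-1 was not on the list. Flt3, Cd34 and Ptprc, which the stated sort did not use, also lay above the median on 8 of 8 arrays. Cd48 rose in FLT3-ITD, with a log2 difference of 1.06 ± 0.13 (SE, limma adjusted p = 0.00740). Flt3 fell, with a difference of −1.17 ± 0.20 (limma adjusted p = 0.0406). The array least like the rest was FLT3-ITD replicate 1 (Pearson r between 0.948 and 0.960 with each of them). Without it 2 receptor genes passed the test, as with it, and Ccr2 had a limma adjusted p of 0.0493. The genes tested there were those chosen on all 8 arrays. FLT3-ITD replicate 037 had the widest gap between the 3′ and 5′ Gapdh controls, 2.99 against 1.82 to 2.29, a sign of RNA quality.

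Of the 9 receptors, Ccr2 and Cxcr3 rose in FLT3-ITD progenitors, and none fell. Cxcr4 was bright in both genotypes and differed by less than the test could call. Ccr9 lay near the array median and read slightly lower, without passing. The other 5 receptors stayed below the array median on every array of both genotypes. Each gene was represented by the probe set with its highest mean, 10763 genes exceeded the array median on 4 or more of the 8 arrays, and a call was a limma adjusted p under 0.05.

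**Figure D1:**
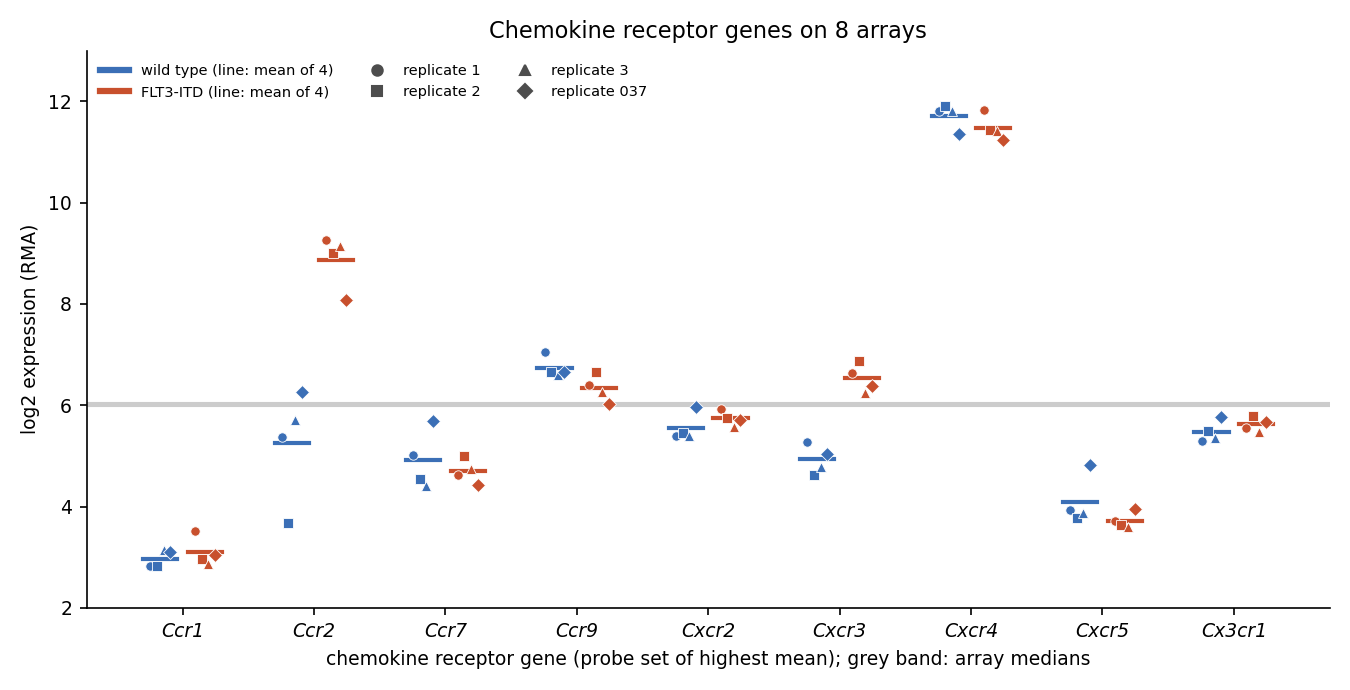
Log2 expression of the 9 receptor genes on 8 arrays, with 4 points and a mean line per genotype and the array medians as a grey band; marker shapes give the replicate. Ccr2 and Cxcr3 separate by genotype, Cxcr4 sits between 11.24 and 11.90 on all arrays, and Ccr1, Ccr7, Cxcr2, Cxcr5 and Cx3cr1 stay below the band.

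Only 4 receptors, Ccr2, Ccr9, Cxcr3 and Cxcr4, passed the filter, and 2 of these 4 were called higher. Over all tested genes, 0.427% were called higher and 0.177% lower. In those 2 receptors every FLT3-ITD value lay above every wild type value, as in 3.77% of tested genes, and no tested receptor had all values below wild type, as in 2.44%. Cxcr3 passed the filter through its 4 FLT3-ITD arrays alone and Ccr2 through these and wild type replicate 037, so these shares say little by themselves. Without any filter, over 34945 probe sets, 2 of the 18 receptor probe sets were called higher, 1 each of Ccr2 and Cxcr3, where the whole table had 0.137%. In 4 of the 18 every FLT3-ITD value exceeded every wild type value, where the whole table had 3.07%. Of these 4, 3 were of Ccr2, designed from 1 source sequence, and 1 was of Cxcr3. They are thus readings of 2 genes, not of 4.

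The stretches before the transcript starts of Ccr2 and Cxcr3, the receptors that rose, and of Cxcr4, the bright receptor that was not called, are shown from RefSeq (build GRCm38.p6), each 250 bases, 5′ to 3′ on the gene's strand and ending at the base before the annotated start. They lie at chr9:124101933-124102182 (plus strand), chrX:101734148-101734397 (minus strand) and chr1:128592300-128592549 (minus strand). Capitals mark the letters AGGAAG, which ETS factors such as PU.1 recognise, on either strand.
Ccr2: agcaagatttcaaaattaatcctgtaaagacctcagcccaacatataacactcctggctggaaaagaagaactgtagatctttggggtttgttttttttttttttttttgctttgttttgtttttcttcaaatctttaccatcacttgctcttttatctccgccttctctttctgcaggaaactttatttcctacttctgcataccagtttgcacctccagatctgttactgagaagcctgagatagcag
Cxcr3: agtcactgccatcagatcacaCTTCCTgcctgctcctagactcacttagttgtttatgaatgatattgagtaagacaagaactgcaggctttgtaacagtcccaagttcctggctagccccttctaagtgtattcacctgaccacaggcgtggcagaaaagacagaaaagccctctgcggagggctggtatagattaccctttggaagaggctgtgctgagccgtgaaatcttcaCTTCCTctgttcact
Cxcr4: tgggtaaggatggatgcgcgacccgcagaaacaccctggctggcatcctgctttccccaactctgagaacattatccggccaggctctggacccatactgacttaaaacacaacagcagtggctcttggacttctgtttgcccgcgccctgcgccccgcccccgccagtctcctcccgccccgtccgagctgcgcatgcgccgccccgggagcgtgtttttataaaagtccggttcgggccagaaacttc
The table held promoters of 7 of the 9 receptors, without Ccr7 and Cxcr5. The letters AGGAAG were found 2 times before Cxcr3, 2 times before Cxcr2 and 1 time before Ccr9. They were not in the windows of Ccr2, Cxcr4, Ccr1 and Cx3cr1, while 29.5% of all 32851 promoter windows hold them. Shorter ETS letters were not searched. The STAT letters TTCNNNGAA, searched because FLT3-ITD signals through STAT5, were in 0 of the 7 windows and in 7.02% of all. E-box letters CANNTG, searched on both strands, were in 6 of the 7, Cxcr4 being the exception, and in 66.2% of all. GC content was 37.2% before Ccr2, 48.0% before Cxcr3 and 61.2% before Cxcr4, with a median of 52.4% over all promoters. These matches describe letters, not bound sites.

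Ccr2 encodes the receptor for Ccl2 and marks monocytes and their progenitors. Its probe set 1421187_at, the one of highest mean, read 5.37, 3.68, 5.71 and 6.27 in wild type replicates 1, 2, 3 and 037, and 9.27, 9.01, 9.15 and 8.07 in the same replicates of FLT3-ITD. All FLT3-ITD arrays lay above all wild type arrays, and wild type replicate 037 was the single wild type array above its median. The means were 5.26 ± 1.12 and 8.87 ± 0.55 (log2, SD, n = 4 each). The gene rose by 3.62 ± 0.52 (SE; 12.3-fold; 95% interval 2.44 to 4.79; limma adjusted p = 0.0213). The call ended on leaving out wild type replicate 1 (limma adjusted p = 0.0607), wild type replicate 3 (0.0679), FLT3-ITD replicate 2 (0.0766) or FLT3-ITD replicate 3 (0.0691), while the difference stayed between 3.09 and 3.95 over the 8 removals.

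The array reads Ccr2 through 4 probe sets, 3 of them designed from one source sequence. Probe set 1421186_at read 4.24, 3.75, 4.40 and 4.08 in wild type and 8.90, 7.81, 6.90 and 7.29 in FLT3-ITD, again in the order of replicates 1, 2, 3 and 037. Probe set 1421188_at read 4.19, 4.79, 4.42 and 4.47 against 8.08, 6.43, 6.78 and 6.41. In both, wild type values were tight and low and the genotypes did not overlap, with FLT3-ITD replicate 1 the highest. The wild type values were below the array median, where RMA compresses differences, so these differences may be understated. The probe set from the other source, 1460067_at, read 3.88, 4.07, 4.67 and 4.24 against 5.38, 4.74, 4.98 and 4.65. There FLT3-ITD replicate 037 fell just below wild type replicate 3, and all 8 arrays were under their median. In the fit over all probe sets without a filter, the differences were 3.61 ± 0.39 for 1421186_at (limma adjusted p = 0.0127), 3.62 ± 0.53 for 1421187_at (0.0508), 2.46 ± 0.36 for 1421188_at (0.0508) and 0.72 ± 0.22 for 1460067_at (0.392). The one called there, 1421186_at, thus was not the set with the highest mean, and the adjusted p of both sets at 0.0508 just missed the threshold. As a mean over its 4 probe sets Ccr2 was higher by 2.60 ± 0.28 without a filter (limma adjusted p = 0.00512). With the filter on dim genes the limma adjusted p was 0.00233. In bulk RNA, more cells of a type and more RNA per cell cannot be told apart.

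**Figure D2:**
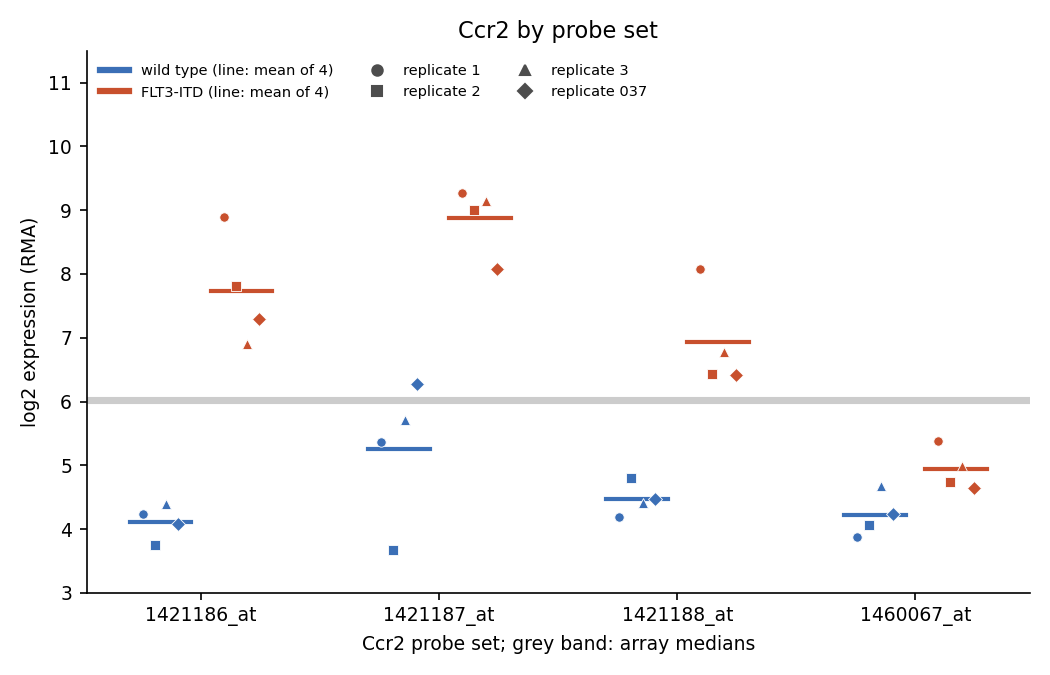
Log2 expression of Ccr2 by probe set, with points for the 4 arrays of each genotype, lines for means and the array medians as a grey band. The genotypes are apart in 1421186_at, 1421187_at and 1421188_at and overlap slightly in 1460067_at, where all values lie between 3.88 and 5.38.

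Some genes of monocytes and conventional dendritic cells read higher beside Ccr2, and 1 of them passed the test. Of 12 monocyte and macrophage markers, 11 had a probe set and 7 were tested; all 7 differences were positive, with a median of 0.96, and none passed, while over all tested genes the median difference was 0.02. The mean over the 11 markers ran from 6.79 to 7.02 in wild type and from 7.37 to 7.91 in FLT3-ITD, without overlap. In Ly86, Ms4a6c and F13a1 the genotypes did not overlap, while in Csf1r, Cd68, Lyz2 and Klf4 they did. Every FLT3-ITD value lay above every wild type value in 3.77% of all tested genes. The difference was largest for Ly86, a partner of the receptor-like protein CD180, at 2.39 ± 0.45 (limma adjusted p = 0.0691), then Ms4a6c at 1.72 ± 0.40 (0.145) and F13a1, a coagulation factor chain made by monocytes, at 1.60 ± 0.32 (0.0864). Adgre1, a macrophage surface antigen, and Cd14 were under the array median on all 8 arrays, and Fcgr1 and Fn1, which did not pass the filter either, read −0.38 and −0.07. Of 9 conventional dendritic markers, 8 had a probe set and 3 were tested, all with positive differences. Cst3, cystatin C, rose by 1.54 ± 0.20 (limma adjusted p = 0.0122), where 0.427% of all tested genes were called higher. Zbtb46 read 2.38 ± 0.52 without overlap and Clec10a 0.42 ± 0.23 with overlap (limma adjusted p = 0.124 and 0.621). The list mean ran from 5.56 to 5.81 in wild type and from 6.19 to 7.12 in FLT3-ITD. Of the untested genes of that list, Itgax, Xcr1 and Cd83 were higher without overlap, and Cd209a and Batf3 overlapped. Cd209a and Cd83 were under the median on all arrays. All tested neutrophil and erythroid markers had negative differences, though that of the erythroid marker Klf1 was only −0.03. Of 9 neutrophil markers, 7 had a probe set and 6 were tested. All 6 differences were negative, with a median of −1.59, none passed, and each overlapped between genotypes. In 4 of the 6 the unadjusted limma p was under 0.05, as in 1031 of all 10763 tested genes. The mean over the 7 ran from 7.33 to 8.71 in wild type and from 5.87 to 8.11 in FLT3-ITD. Of 5 erythroid markers with a probe set, 3 were tested and 2 fell. Slc4a1, the red cell anion exchanger, differed by −2.10 ± 0.34 and Hemgn by −1.52 ± 0.24 (limma adjusted p = 0.0336 and 0.0286). The share of all tested genes called lower was 0.177%. Slc4a1 passed the filter through its 4 wild type arrays alone, so the count says little beside that share. The other tested marker, Klf1, overlapped at −0.03 ± 0.50 (limma adjusted p = 0.991). The untested Gata1 and Epor overlapped too, at −0.06 and −0.05. The part of these cell types in the rise of Ccr2 was not tested.

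**Figure D3:**
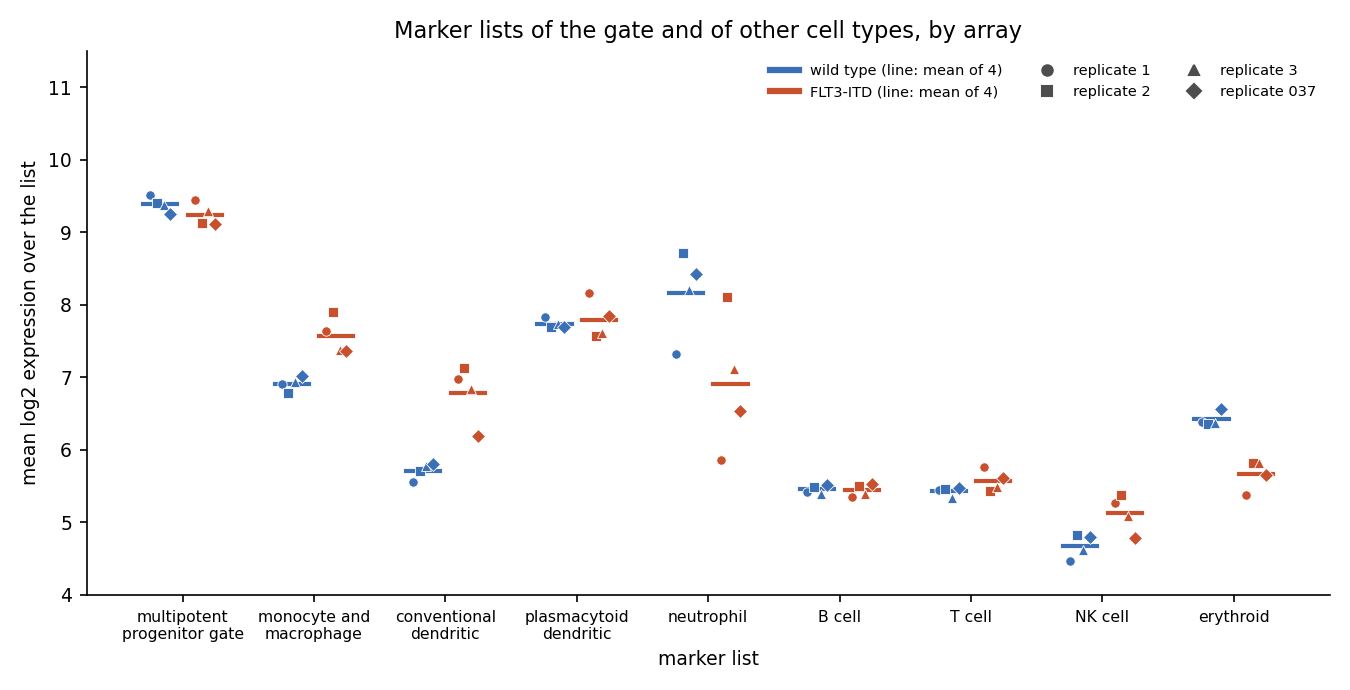
Mean log2 expression over each marker list, 1 point per array and a line per genotype mean. The monocyte and macrophage list and the conventional dendritic list are higher in all FLT3-ITD arrays and the erythroid list lower, the neutrophil list spreads widely and overlaps, and the B cell list lies between 5.35 and 5.53 in both.

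Cxcr3 is best known from effector lymphocytes, and in these progenitors it rose from below the array median to just above it. Its single probe set read 5.28, 4.62, 4.79 and 5.04 in wild type replicates 1, 2, 3 and 037, and 6.63, 6.88, 6.25 and 6.38 in FLT3-ITD. All 4 wild type arrays were below the array median and all 4 FLT3-ITD arrays above it. Means were 4.93 ± 0.29 and 6.54 ± 0.28 (log2, SD, n = 4 each), a rise of 1.60 ± 0.19 (SE; 3.04-fold; 95% interval 1.17 to 2.04; limma adjusted p = 0.00740). All wild type values lay in the dim range, where RMA compresses differences, so the fold may be understated. In the fit over all probe sets without a filter the adjusted p was 0.0180. In the gene comparison the call held on leaving out each of the 8 arrays, with limma adjusted p up to 0.0416. Those removals kept the genes chosen for testing on all 8 arrays. Cxcr3 passed that filter through its 4 FLT3-ITD arrays alone, so without any 1 of these it would not have reached the 4 arrays required. In the fit over all probe sets, which has no filter, the call ended in 4 of those 8 removals, with limma adjusted p up to 0.0917.

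Markers of T and NK cells gave mixed readings, and none passed the test. The T cell receptor chains Cd3e, Cd3d and Cd3g were below the array median on all 8 arrays, reading 4.91, 5.14 and 4.63 in wild type and 5.10, 5.16 and 4.71 in FLT3-ITD. Cd4 and Cd8a lay above it on all 8 arrays, with differences of 0.06 ± 0.14 and 0.55 ± 0.26 (limma adjusted p = 0.930 and 0.559). The mean over 7 T cell markers ran from 5.34 to 5.48 in wild type and from 5.44 to 5.77 in FLT3-ITD. Of 5 NK cell markers, Ncr1, Eomes and Gzma were below the median on all arrays, and Klrk1, which encodes NKG2D, had means of 3.68 (wild type) and 5.81 (FLT3-ITD), without overlap and without passing the filter. Nkg7, a granule protein of cytotoxic cells, lay above the median on all 8 arrays, with a difference of 0.30 ± 0.18 (limma adjusted p = 0.674). The mean over the NK list ran from 4.46 to 4.83 in wild type and from 4.78 to 5.38 in FLT3-ITD. Of 5 plasmacytoid dendritic markers, 4 were tested and 0 passed, 3 of the 4 differences being negative, with a median of −0.13, and Siglech had means of 6.22 (wild type) and 6.20 (FLT3-ITD). The part of these cell types in the rise was not tested.

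Cxcr4, the receptor that retains progenitors near Cxcl12-producing stroma, read 11.81, 11.90, 11.81 and 11.35 in wild type and 11.83, 11.43, 11.42 and 11.24 in FLT3-ITD. The ranges overlapped, and replicate 037 was the lowest in both genotypes. The means were 11.72 ± 0.25 and 11.48 ± 0.25, a difference of −0.24 ± 0.18 (SE; 95% interval −0.64 to 0.16; limma adjusted p = 0.735). The interval leaves room for a fall of up to 0.64 and a rise of up to 0.16 on the log2 scale. On leaving out single arrays the difference ran from −0.36 to −0.16.

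Ccr9, a receptor for Ccl25 that early lymphoid progenitors use on their way to the thymus, gave a mixed reading. Its probe set of highest mean, 1442758_at, read 7.04, 6.65, 6.61 and 6.65 in wild type and 6.40, 6.67, 6.27 and 6.02 in FLT3-ITD, so that only FLT3-ITD replicate 2 reached the wild type range. The difference was −0.40 ± 0.17 (SE; 95% interval −0.78 to −0.01), which did not pass over all genes (limma adjusted p = 0.509). The other 4 probe sets read −0.18, 0.41, −0.29 and 0.07 relative to wild type, so 2 of the 5 were positive. As a mean over all 5 the difference was −0.08 ± 0.14, and that mean lay under the filter.

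The other 5 receptors gave values under the array median on all 8 arrays, and no difference among their 7 probe sets passed. Ccr7, which guides mature dendritic cells and naive T cells to lymph nodes, read 5.02, 4.55, 4.41 and 5.70 in wild type and 4.63, 4.99, 4.74 and 4.43 in FLT3-ITD, with overlapping ranges. Cxcr5, the receptor for Cxcl13 on B cells, read 3.93, 3.77, 3.87 and 4.81 against 3.72, 3.63, 3.59 and 3.95, and replicate 037 was highest in both genotypes. Cxcr2 read 5.39, 5.45, 5.39 and 5.96 against 5.92, 5.75, 5.57 and 5.71. Wild type replicates 1, 2 and 3 lay below all FLT3-ITD arrays of Cxcr2 and wild type replicate 037 above them. Ccr1, a receptor for Ccl3 and Ccl5, lay between 2.38 and 3.52 over both its probe sets, and Cx3cr1, the receptor for fractalkine on patrolling monocytes, between 4.18 and 5.80. Their differences in the unfiltered gene fit were 0.13 for Ccr1 (95% interval −0.24 to 0.50), −0.22 for Ccr7 (−0.84 to 0.40), 0.19 for Cxcr2 (−0.16 to 0.55), −0.37 for Cxcr5 (−0.89 to 0.15) and 0.15 for Cx3cr1 (−0.16 to 0.45). At such dim signal RMA compresses differences, so a change in RNA of the 5 may have been missed.

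**Figure D4:**
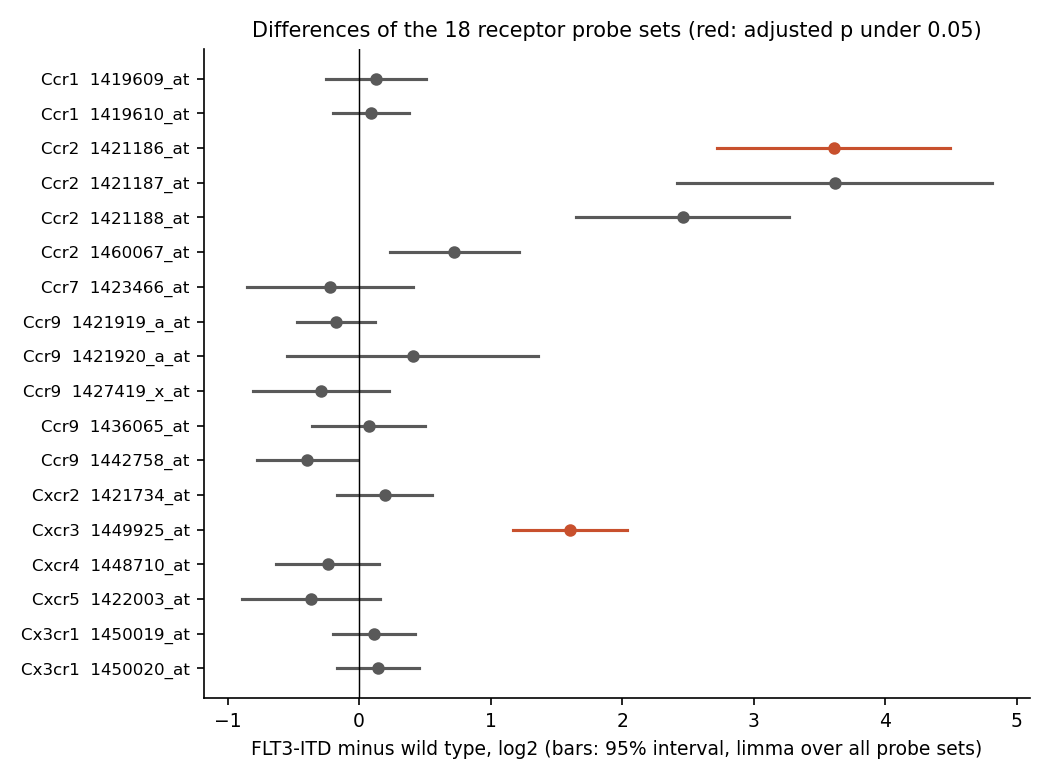
FLT3-ITD minus wild type difference (log2) of each of the 18 receptor probe sets, with bars for the 95% interval of the fit over all probe sets; red marks adjusted p under 0.05. The red points are 1421186_at of Ccr2 at 3.61 and the Cxcr3 probe set at 1.60, and all probe sets of the 7 other receptors lie between −0.40 and 0.41.

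Ccr2 and 4 other receptors of the set, Ccr1, Ccr9, Cxcr5 and Cx3cr1, lie on chromosome 9, where a row of genes, most of them receptors, runs from Ccr9 to Ccr2 in the GRCm38.p6 gene order. The genes next to Ccr2 in this row are Ccr3, at −0.56 ± 0.19, and Ccr1l1, at 0.05 ± 0.15, neither past the limma test without a filter (adjusted p = 0.444 and 0.955). Farther along the row Xcr1, the receptor of cross-presenting dendritic cells, read 4.72, 4.47, 4.83 and 4.59 in wild type and 7.01, 7.20, 6.87 and 4.98 in FLT3-ITD. All 4 FLT3-ITD values were higher, 3 of them by a wide margin and replicate 037 barely, and the difference of 1.86 ± 0.44 did not pass (limma adjusted p = 0.192 without a filter). Near Cxcr3 on the X chromosome, Ogt read −0.11 ± 0.18 and 8030474K03Rik 0.25 ± 0.22 (limma adjusted p = 0.903 and 0.783), and Gm52429 and Gm4779 are not analysed here.

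**Figure D5:**
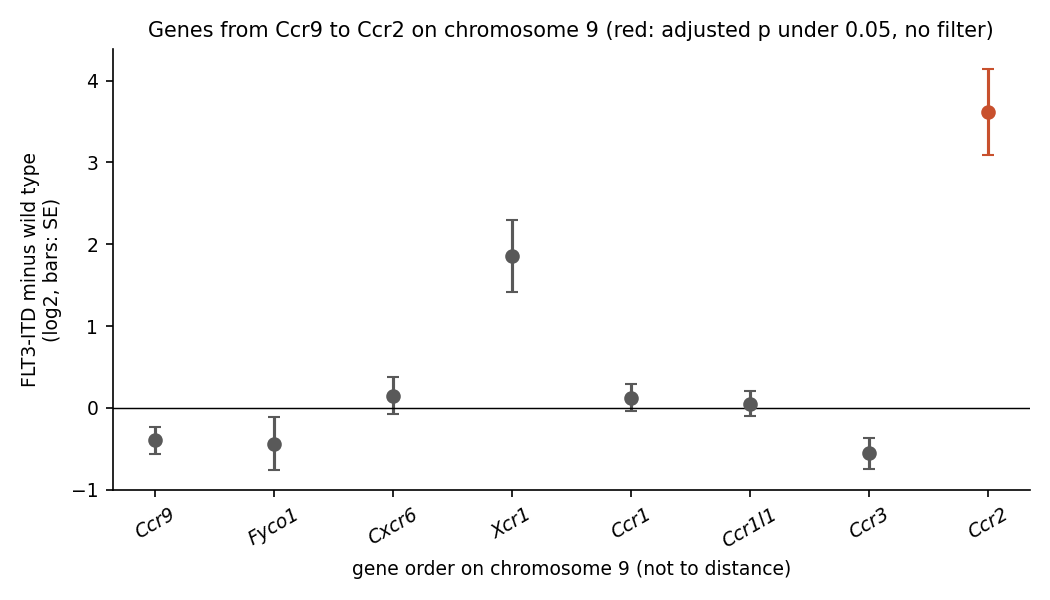
Difference (FLT3-ITD minus wild type, log2, bars for SE) of the genes from Ccr9 to Ccr2 in their order on chromosome 9, not drawn to distance, from the gene fit without a filter. Ccr2 at 3.62 is the red, called gene, Xcr1 stands at 1.86, and the others lie between −0.56 and 0.15.

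By Pearson correlation over the 8 arrays, which share the genotype difference, the tested genes most like Ccr2 were Ctse (r = 0.974), Septin3 (0.971), Fgl2 (0.969), Cd74 (0.967) and Poc1a (0.962). Those most like Cxcr3 were Clec1a (r = 0.985), Id2 (0.983), Naaa (0.981), Ifi30 (0.974) and Pofut2 (0.971). No gene was in both groups of 5. Of the Ccr2 group, Cd74, the MHC class II invariant chain, rose by 4.12 ± 0.31 and Septin3 by 1.72 ± 0.24 (limma adjusted p = 0.000765 and 0.0211), while Ctse, Fgl2 and Poc1a did not pass. All 5 of the Cxcr3 group rose, among them Id2, an inhibitor of E proteins, by 3.76 ± 0.28, and Ifi30, a lysosomal thiol reductase of antigen processing, by 1.62 ± 0.26 (limma adjusted p = 0.000765 and 0.0330). Over all tested genes 0.427% were called higher. Choice by likeness to a called receptor favours genes that differ by genotype, so these calls are no separate evidence.

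The rest of the chemokine system showed no call. Over all 10763 tested genes, 5781 differences were positive and 1031 genes had an unadjusted limma p under 0.05, the background against which the counts of each list are read. Of 14 other chemokine receptors, 12 had a probe set and 3 were tested, the scavenging receptors Ackr1 at 0.17 ± 0.14, Ackr2 at −0.07 ± 0.15 and Ackr4 at −0.27 ± 0.21. Of these 3, 0 passed in either direction, and none had an unadjusted limma p under 0.05. Among those under the filter, the unadjusted limma p without a filter was 0.00240 for Xcr1, 0.0169 for Ccr3 and 0.0464 for Ccr8. It was above 0.05 for the rest, and none passed after adjustment. Of 36 chemokines, 34 had a probe set and 13 were tested, with 7 positive and 6 negative differences, a median of 0.07, 0 called and 3 with an unadjusted limma p under 0.05. Ccl4 had means of 7.58 ± 0.27 (wild type) and 6.77 ± 0.19 (FLT3-ITD; log2, SD, n = 4 per genotype), a difference of −0.81 ± 0.17 (limma adjusted p = 0.103). Ccl3 read 8.31, 9.10, 9.40 and 9.61 against 7.88, 8.25, 7.95 and 7.79, a difference of −1.14 ± 0.27 (0.147). Both chemokines, of which Ccl3 is a ligand of Ccr1, were lower in all FLT3-ITD arrays than in all wild type arrays without passing. This held for 2.44% of tested genes. Ccl9, another Ccr1 ligand, and Cxcl1 were instead higher in all FLT3-ITD arrays, as in 3.77% of tested genes. They differed by 0.55 ± 0.18 and 0.25 ± 0.12 (limma adjusted p = 0.347 and 0.561).

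Of 40 genes that carry receptor signals (G protein subunits, arrestins, receptor kinases, RGS proteins, PI3-kinase gamma and Rac regulators), 36 were tested, with 23 positive and 13 negative differences, a median of 0.10, 0 called and 3 with an unadjusted limma p under 0.05. The 3 genes of smallest p are given here for that reason alone. Rgs1, which shortens G protein signals and dampens responses to Cxcl12, read 10.47, 11.20, 11.07 and 10.95 in wild type and 8.26, 9.42, 10.10 and 8.62 in FLT3-ITD. The groups did not overlap, and the difference of −1.82 ± 0.38 did not pass (limma adjusted p = 0.103). Ptk2b, a focal adhesion kinase relative, read −0.82 ± 0.30 (limma adjusted p = 0.439) and Pik3cg, the catalytic PI3-kinase subunit used by these receptors, 0.48 ± 0.21 (0.519). Of 13 other chemoattractant receptors, 7 were tested and 0 passed, with S1pr4, a sphingosine-1-phosphate receptor, at −0.56 ± 0.30 (limma adjusted p = 0.612), Ptger4 at 0.25 ± 0.17 (0.710) and Ltb4r1 at 0.13 ± 0.11 (0.761).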

How the data were processed

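Expression was measured on 8 arrays, 4 wild type and 4 FLT3-ITD. The deposited values are log2 expression per probe set, made by the authors with RMA (background correction, normalization between arrays, summary of probes), per the submitters' processing notes, which give no version here. RNA was extracted with Trizol and amplified before labelling, per the labels' protocols. RMA makes array distributions alike and understates differences at low signal. The number of arrays limits the precision.

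Of 45101 probe sets, 34945 had exactly 1 gene in the platform annotation, 932 several and 9160 none, and 64 were controls. Current symbols came through Entrez IDs for 34741. The probe set whose mean was highest stood for its gene, which was tested where 4 or more arrays exceeded their median. FLT3-ITD was compared with wild type in limma 3.58.1 (R 4.3.3) without covariates, with Benjamini-Hochberg adjustment over all genes tested. A second fit took all 34945 probe sets without a filter. The gene fit was tested on simulated data, and the fit over all probe sets was not. Promoters were read from RefSeq tables, and figures were drawn with matplotlib 3.10.9.

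The receptor genes, the lists and the tests were chosen with earlier results of these data known. Named genes were the 9 receptors; of each pathway list the called genes or else the 3 of smallest p; the 5 genes most correlated with each called receptor; its 2 nearest protein-coding genes on each side, where reported here; and Flt3 and the sorting markers. Xcr1, Ccr8, Cxcl1, the marker genes and the genes between Ccr9 and Ccr2 were named after their values were seen. Alternatives covered filter, probe set choice, normalization, variance model, array weights, replicate numbers, the tag 037 and each array's removal.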

Additional observations from a re-analysis of the deposited data

Results flagged for a closer look

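In 110 groups of 4 values (receptor probe sets, named genes and list means by genotype), 9 had 1 array lying well away from its 3 companions, which by chance happens in about 1 of 20 such groups. For the receptors these were wild type replicate 1 for Ccr9 (1442758_at) at 7.04, with the others at 6.61 to 6.65, and wild type replicate 037 for Cxcr2 at 5.96 (others 5.39 to 5.45) and for Cxcr5 at 4.81 (others 3.77 to 3.93). FLT3-ITD replicate 037 was low for Xcr1 at 4.98, with the others at 6.87 to 7.20. Wild type replicate 1 was high for Ackr1 at 6.31 and low for Zbtb46, a dendritic cell factor, at 4.46. FLT3-ITD replicate 2 was low for Ccr3 at 3.08 and for Kit at 8.77. Wild type replicate 037 was high for the mean of the erythroid markers at 6.57.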

How the results depend on the processing

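Ccr2 and Cxcr3 kept a positive difference under every alternative that tested them. In the gene comparison Ccr2 lost its call with the replicate block and without wild type replicate 1 or 3 or FLT3-ITD replicate 2 or 3, and Cxcr3 with the block; the other alternatives that tested them kept both calls. The arrays share only a replicate number by the rule used (every same-numbered r above 0.1): r ran from 0.03 to 0.11. Of the 4 numbers, 1, 3 and 037 matched best with their own number in the other genotype, a hint from the data only, and replicate 2 did not. With the number as a replicate block, 19 genes were higher and 3 lower against 46 and 19, and 0 receptors were called, with Ccr2 at 3.62 (limma adjusted p = 0.0905) and Cxcr3 at 1.60 (0.0622); 0 receptor probe sets were called. A filter on the mean over the 8 arrays left Cxcr3 untested and 1 receptor called. Array weights gave 30 lower genes. Of the 18 probe sets, 4 were called, against 2, after the filter on dim probe sets and likewise with an intensity trend. Leaving out single arrays gave 28 to 45 higher and 2 to 14 lower genes, 1 to 2 called receptors and 0 to 3 called probe sets. The genes tested in these removals were those chosen on all 8 arrays. Counts of probe sets were 0 without wild type replicate 3 or FLT3-ITD replicate 2, and 1 without wild type replicate 2 or 037. The cause was not tested. In these removals Ccr2 differed by 3.09 to 3.95 and Cxcr3 by 1.49 to 1.72. Signs turned for 3 uncalled dim probe sets: Ccr1 1419609_at ran from −0.013 to 0.20, Ccr7 from −0.39 to 0.039 and Ccr9 1436065_at from −0.10 to 0.21. The signs of Cxcr4 and of Ccr9 1442758_at held in every alternative that tested them.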
